A study of Mus musculus with 3 samples.

Results

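The NK cell/ILC class of the mouse ovary was described from single-cell RNA sequencing of ovaries from aged mice given metformin, untreated aged mice and young mice. Its members are all cells that carried the deposited cell type name NK cell/ILC, which were 843 of 14353 cells. Of these, 215 came from ovaries of aged mice given metformin, 195 from untreated aged ovaries and 433 from young ovaries. All mice were C57BL/6 females. The metformin mice were given the drug at 350 mg/kg/day with their water over 6 months, starting when they were 14 months old and before ovarian fibrosis develops, in an arm called prevention. The untreated aged mice received no drug, and their age at collection is not stated for the cells. The young mice were 3 months old and untreated. The study had 5 mice per group, and 3 left ovaries, each from another mouse, were combined per group before dissociation, so no value belongs to a single mouse.

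Natural killer (NK) cells are lymphocytes that kill stressed, infected or transformed cells without a rearranged antigen receptor. NK cells release granules that hold perforin, which opens the target membrane, and granzymes, proteases that enter through it, and they secrete interferon gamma and chemokines. Maturing mouse NK cells lose CD27 and gain granule proteases, S1P and fractalkine receptors and the integrin CD11b. Helper-like innate lymphoid cells (ILCs) share their early development, and ILC1 differ from circulating NK cells by residence in tissue and by lower cytotoxicity. In the female reproductive tract, tissue-resident NK cells are best known from the uterus.

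Each condition carried 1 lipid-anchored sample tag, so a condition is 1 suspension, and the 3 multiplexed 10x libraries (pools A, B and C) are treated as repeats of those suspensions because nothing in the labels ties a pool to a mouse. No test across animals was possible, no p-value is given, and every interval below is an exact 95% interval for counting error only. The class held 574064 UMIs (unique molecular identifiers, 1 per captured transcript) in metformin cells, 498804 in untreated aged cells and 1177233 in young cells. Its median depth was 2354, 2245 and 2371 UMIs per cell in the same order, and the median mitochondrial share was 2.24%, 2.25% and 1.93%. Levels are UMIs of a gene summed over the class cells of a condition and given per 1000000 UMIs of those cells (CPM). A gene was called past 2-fold when its log2 CPM ratio lay beyond 1 in either direction with the same sign in every pool, counting only genes with 50 UMIs or more in the compared conditions together. Over all deposited cells the median depth was 2752 UMIs in metformin, 3034 in untreated aged and 5277.5 in young cells, and 26 cell barcodes occurred in more than 1 pool, 1 of them in the class. In summed counts, fewer cells with a transcript and fewer transcripts per cell cannot be told apart, so shares of cells are given as well.

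The deposited name was checked against its markers. Ncr1, the activating receptor NKp46 that defines NK cells and some ILCs, had a UMI in 73.8% of class cells, against 0.718% of T cell/NKT cells and 0 of T cell/ILC cells. Klrb1c, which encodes NK1.1, had a UMI in 67.0% of class cells and in 4.21% of T cell/NKT cells. Gzma, which encodes granzyme A, reached 6514 CPM in the class, and the next highest class was B cell I at 53.8 CPM. Nkg7, a granule membrane protein, did not separate the class, with 2664 CPM against 2518 CPM in T cell/NKT cells. Since the class was drawn from expression, these values describe it and test nothing. After each cell was thinned to 1000 UMIs, 807 of 826 cells (97.7%, interval 96.4% to 98.6%) had at least 2 of 22 NK markers.

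**Figure D1:**
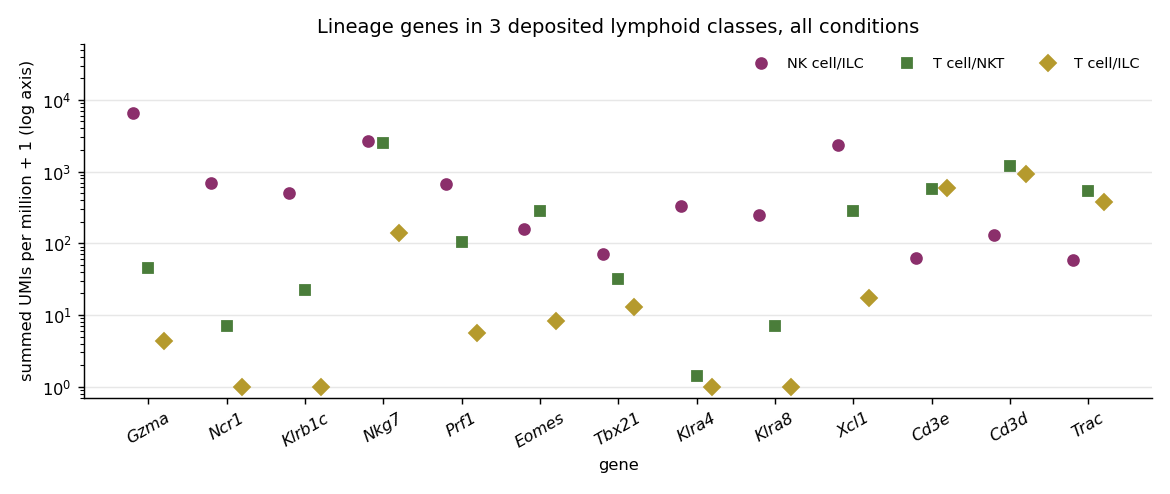
CPM plus 1 (log axis) of lineage genes over all conditions in the NK cell/ILC class (circles) and the T cell/NKT (squares) and T cell/ILC (diamonds) classes, 1 point per class and gene. Gzma stands at 6514 CPM in the NK cell/ILC class, Ncr1 at 693, and Nkg7 lies at a like level in the T cell/NKT class.

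The 15 genes most particular to the class by their CPM ratio to the next class were Gzma, Klra4, Ncr1, Klrb1a, Klra8, Klrb1c, Serpinb9b, Styk1, Klra9, Klri2, Klra1, Klra3, Phactr3, Xcl1 and Klra7. Of these, the Klra genes encode the Ly49 receptors, lectin-like receptors of MHC class I molecules. The Klra (Ly49) genes are near-identical paralogs whose reads the counting may have divided wrongly, so their single values are uncertain. Ly49 receptors are switched on at random, so that single cells carry different sets. Unthinned, 205 of 843 class cells had no UMI of any Ly49 gene and 89 had UMIs of 4 or more of them. At 1000 UMIs per cell, no Ly49 gene was seen in 35.3% of metformin, 31.8% of untreated aged and 38.9% of young cells. Unthinned, these shares were 19.5%, 24.6% and 26.6%, so metformin and untreated aged cells changed places and no order is read from them.

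The markers of ILC2 and ILC3 were split. Il17f, Ccr6, Cxcr5, Il13, Il17rb and Il9r had no UMI in 843 class cells, which at a limit of 3 counts allows a share of cells with a UMI of up to 0.356%. Il1rl1, the interleukin-33 receptor of ILC2, had 1 UMI and Il23r had 2. Other genes of these lists, which are not particular to ILCs, were detected. Gata3 had a UMI in 17.3% of class cells and Rora in 10.3% (both of the ILC2 list), and Ahr in 7.95% and Kit in 4.15% (both of the ILC3 list). Without Ncr1, which is on it too, the ILC3 list summed to 76.65 CPM in metformin, 72.2 CPM in untreated aged and 74.75 CPM in young cells. At least 2 markers were seen in 5 of 826 thinned cells for ILC2 (0.605%) and in 23 of 826 for ILC3 (2.785%). At least 2 ILC1 markers, among them Itga1, Cxcr6 and Il7r, were seen in 168 of 826 thinned cells (20.3%, interval 17.6% to 23.3%), and tissue-resident NK cells share these genes. T cell genes were seen as well. A UMI of Cd3e, Cd3d or Cd3g, the invariant T cell receptor chains, was seen in 36 of 215 metformin cells (16.7%), 20 of 195 untreated aged cells (10.3%) and 78 of 433 young cells (18.0%). Those 134 cells had 354 CPM of Ncr1, against 768 CPM in the other 709 class cells, and their Cd8a stood at 162 CPM against 1.63 CPM.

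The promoters of 4 genes that mark the class are shown because the results below turn on Gzma and Prf1, which differ between conditions, and on Ncr1 and Klrb1c, which do not differ beyond their counting intervals. The sequences are the 250 bases before the RefSeq start site on GRCm38.p6, 5′ to 3′ on the gene's own strand: chr13:113100982-113101231 (minus) for Gzma, chr10:61297586-61297835 (plus) for Prf1, chr7:4337465-4337714 (plus, the more upstream of its listed starts) for Ncr1 and chr6:128788642-128788891 (minus) for Klrb1c, of which GENCODE lists a transcript that starts further upstream. Capitals mark the 6 letters TGTGGT, the core bound by RUNX factors, or their reverse complement ACCACA. The motifs were chosen with the values of the genes known.
Gzma: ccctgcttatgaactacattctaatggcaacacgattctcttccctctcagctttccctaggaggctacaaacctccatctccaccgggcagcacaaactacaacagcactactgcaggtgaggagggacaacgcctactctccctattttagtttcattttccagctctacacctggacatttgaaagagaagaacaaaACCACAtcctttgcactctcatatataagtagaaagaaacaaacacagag
Prf1: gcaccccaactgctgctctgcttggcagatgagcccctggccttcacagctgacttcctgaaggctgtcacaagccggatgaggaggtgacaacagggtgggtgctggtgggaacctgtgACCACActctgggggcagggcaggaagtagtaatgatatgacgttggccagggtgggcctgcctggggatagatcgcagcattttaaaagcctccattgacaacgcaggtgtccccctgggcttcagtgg
Ncr1: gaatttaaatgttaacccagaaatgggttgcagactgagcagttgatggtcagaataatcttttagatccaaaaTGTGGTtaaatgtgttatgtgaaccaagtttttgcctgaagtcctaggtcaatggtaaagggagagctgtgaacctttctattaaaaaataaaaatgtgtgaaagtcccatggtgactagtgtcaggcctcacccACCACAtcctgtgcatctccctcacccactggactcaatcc
Klrb1c: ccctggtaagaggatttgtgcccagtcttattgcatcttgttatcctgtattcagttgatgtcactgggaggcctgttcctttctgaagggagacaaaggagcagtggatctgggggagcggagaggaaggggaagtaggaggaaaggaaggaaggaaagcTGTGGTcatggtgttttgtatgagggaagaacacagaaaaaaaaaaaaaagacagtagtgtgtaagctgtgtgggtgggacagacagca
The core begins 50 bases before the start site in Gzma, 130 in Prf1, 176 and 41 in Ncr1, and 89 in Klrb1c. Of 20 genes searched (the granule list with Ncr1 and Klrb1c), 19 had an entry and 14 held the core on either strand, against 14.1% of all 32851 promoter windows of the same length. The letters AGGTGT of T-box factors were in 4 of 19 and in 11.8% of all windows, the letters AGGAAG of ETS factors in 12 of 19 and in 29.5%, and TTCNNNGAA of STAT factors in 3 of 19 and in 7.02%. A gene counted if any of its listed windows held the letters, while the shares of all windows take each window singly, so the measures are unlike. The granzyme genes are related in sequence, so these are not independent counts, and a match of letters does not show binding. The core stands in promoters of genes that differed between conditions and of genes that did not.

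The share of the class in the ovary was compared first. Of all deposited cells, the class made up 5.73% in metformin ovaries (interval 5.01% to 6.52%), 6.55% in untreated aged ovaries (5.68% to 7.49%) and 5.68% in young ovaries (5.17% to 6.23%). By pool, the share was 5.42%, 6.49% and 5.45% in metformin ovaries, 5.39%, 5.75% and 9.21% in untreated aged ovaries and 5.65%, 6.00% and 5.41% in young ovaries, for pools A, B and C. The untreated aged share of pool C was above all the others. The ratio of metformin over untreated aged was 0.875 (interval 0.717 to 1.07), and it was 1.01, 1.13 and 0.592 in pools A, B and C, so pool C alone put it under 1. Without pool C the ratio was 1.06.

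The other lymphoid classes were not level. T cell/NKT cells made up 15.6% of metformin, 7.42% of untreated aged and 2.205% of young cells, and T cell/ILC cells 9.43%, 6.71% and 1.92%. As a share of the 5 lymphoid classes, NK cell/ILC cells were 15.6% in metformin ovaries, 26.2% in untreated aged ovaries and 48.0% in young ovaries, an order that all 3 pools shared. The ratio of metformin over untreated aged was 0.596 (0.488 to 0.727) among lymphoid classes and 0.624 (0.511 to 0.761) among immune classes. Cells were flow-sorted before loading. The gate is not described in the labels, and it can set any of these shares. Gzma is among the genes that mark the class and its level differed between conditions, so the border of the class may not lie at the same place in each.

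**Figure D2:**
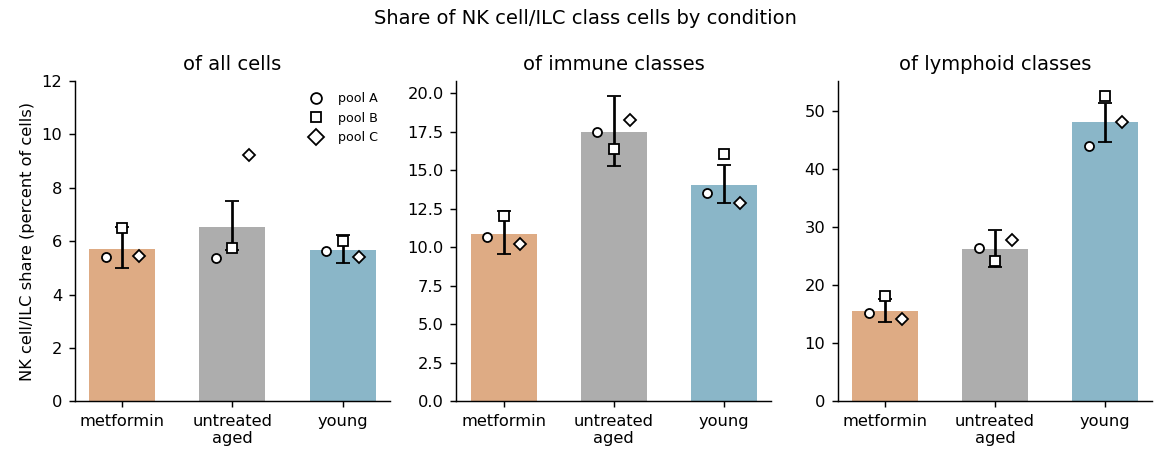
Percent of cells in the NK cell/ILC class, of all cells (left), of the immune classes (middle) and of the lymphoid classes (right), in metformin, untreated aged and young ovaries. Bars are all pools summed with exact 95% counting intervals, and symbols are pools A, B and C. The lymphoid share is 15.6%, 26.2% and 48.0% from left to right, while the share of all cells lies between 5.39% and 6.49% in every pool apart from 9.21% in untreated aged pool C.

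Metformin was set against untreated aged ovaries. In class cells of metformin ovaries, transcripts of granzyme A, granzyme B and perforin were lower in every pool, while the marker receptors Ncr1 and Klrb1c had intervals that include 0. Gzma was at 2670, 3222 and 3643 CPM in pools A, B and C of metformin cells, against 7131, 5872 and 5996 CPM in untreated aged cells and 8801, 8077 and 7757 CPM in young cells. Every metformin pool lay under every untreated aged pool, and every untreated aged pool under every young pool. The pools are treated as repeats of 1 suspension per condition. The share of all genes whose pools separate in this way was not counted, so such separation, here and below, is description only. Over all pools Gzma was at 3188 CPM in metformin cells and 6343 CPM in untreated aged cells, a log2 ratio of -0.99 (-1.08 to -0.91), just inside the 2-fold limit. Gzma lies on chromosome 13 (GRCm38, 113093825 to 113100981, minus strand).

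Prf1, which encodes perforin (chromosome 10, 61297833 to 61304680, plus strand), was at 321, 287 and 404 CPM in pools A, B and C of metformin cells, against 647, 758 and 626 CPM in untreated aged cells and 883, 809 and 738 CPM in young cells. The metformin pools again lay below all others. Its log2 ratio of metformin over untreated aged was -1.0 (-1.26 to -0.74), also just inside the limit. Gzmb, the granzyme that triggers caspases in target cells (chromosome 14, 56258838 to 56262260, minus strand), was at 702, 549 and 681 CPM in metformin cells, against 1069, 1034 and 939 CPM in untreated aged cells and 1478, 1303 and 1354 CPM in young cells. The 3 conditions did not overlap, and the log2 ratio of metformin over untreated aged was -0.66 (-0.85 to -0.46).

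The granule list was then read as a whole. Of 18 listed granule genes, 12 had at least 50 UMIs, none was past 2-fold higher and 1, Gzmc, was past 2-fold lower. Over the whole transcriptome, 9 of 3149 genes (0.286%) were past 2-fold lower and 11 (0.349%) past 2-fold higher. The median log2 ratio of the 12 members with at least 20 UMIs was -0.30, and 10 were below 0, against a median of 0.02 over the 5839 genes with as many UMIs. Srgn, the proteoglycan that packs granules, was at 1488 CPM in metformin and 1490 CPM in untreated aged cells (log2 ratio 0.00, -0.15 to 0.14), and Ctsw, a cathepsin of cytotoxic cells, was at 625 and 630 CPM (-0.01, -0.23 to 0.21). Gzmc was at 61.0 CPM in metformin and 194.5 CPM in untreated aged cells, a log2 ratio of -1.65 (-2.27 to -1.10), but 47.4% of its untreated aged UMIs were in 1 cell. Without that cell the log2 ratio was -0.74. Gzmc had fewer than 50 UMIs in metformin cells and reached the minimum only with the untreated aged cells, so its call carries no weight. Of 14 genes of granule traffic and release, 8 had at least 50 UMIs and none was past 2-fold, and the median log2 ratio was 0.08.

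The markers Nkg7, Ncr1 and Klrb1c stood otherwise, but the wider NK marker list did not. Of its 21 members with at least 20 UMIs, 18 were below 0, against 2805 of all 5839 genes. Their median log2 ratio was -0.22, and by pool -0.41, -0.27 and -0.10. The list, which holds Gzma and Prf1 too, summed to 12450 CPM in metformin and 16690 CPM in untreated aged cells. Nkg7 was at 2194, 2283 and 2725 CPM in pools A, B and C of metformin cells and at 2654, 2509 and 2359 CPM in untreated aged cells, so that the pools overlap. Its log2 ratio was -0.06 (-0.17 to 0.05). Ncr1 was at 768, 771 and 639 CPM in metformin and 683, 827 and 723 CPM in untreated aged cells (log2 ratio -0.03, -0.23 to 0.18). Klrb1c was at 597, 534 and 398 CPM in metformin and 558, 503 and 540 CPM in untreated aged cells (log2 ratio -0.07, -0.32 to 0.17). These intervals, which cover counting error only, do not reach the ratio of Gzma. The adaptors Tyrobp and Fcer1g, which carry the signal of activating receptors, had log2 ratios of -0.08 (-0.19 to 0.03) and -0.06 (-0.16 to 0.04).

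**Figure D3:**
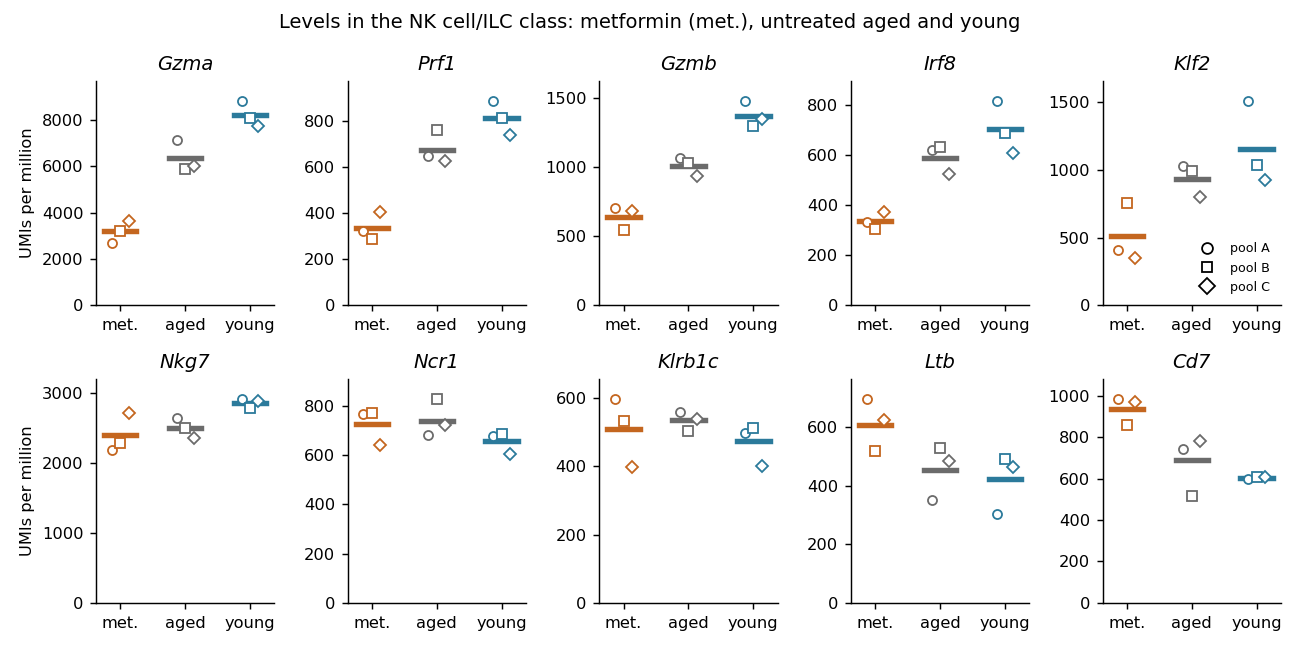
CPM of 10 genes in the NK cell/ILC class of metformin (met.), untreated aged and young ovaries. Horizontal lines are all pools summed and symbols are pools A, B and C. The metformin pools of Gzma (2670 to 3643), Prf1, Gzmb and Irf8 lie under all untreated aged and young pools, while Nkg7, Ncr1 and Klrb1c overlap between metformin and untreated aged.

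Granzyme A was also read cell by cell at equal depth. After thinning to 1000 UMIs, 73 of 207 metformin cells (35.3%, interval 28.8% to 42.2%), 91 of 192 untreated aged cells (47.4%, 40.2% to 54.7%) and 252 of 427 young cells (59.02%, 54.2% to 63.7%) had a Gzma UMI. Unthinned, these shares were 40.0%, 51.3% and 61.4%. Thinning left out 8 metformin, 3 untreated aged and 6 young cells. In fibroblasts, which do not make granzyme A, thinned shares were 0.366%, 0.388% and 0.204%, and in T cell/NKT cells they were 0.891%, 2.38% and 6.10%. By pool the thinned share was 32.9%, 35.8% and 37.1% in metformin, 56.1%, 44.4% and 41.7% in untreated aged and 65.5%, 60.1% and 51.4% in young cells. Within every pool the order was metformin, untreated aged, young from low to high, although the intervals of metformin and untreated aged overlap in each single pool.

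The content of the cells that had the transcript differed too. Cells with a thinned Gzma UMI held on average 10.3 such UMIs in metformin, 14.7 in untreated aged and 17.3 in young cells. Cells with 20 or more Gzma UMIs per 1000 made up 4.83% of metformin, 14.6% of untreated aged and 23.7% of young cells. Prf1 showed the same order, with a thinned UMI in 20.8% of metformin, 38.0% of untreated aged and 43.3% of young cells. Leaving out cells with a CD3 UMI gave Gzma shares of 36.6%, 47.7% and 61.5%.

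**Figure D4:**
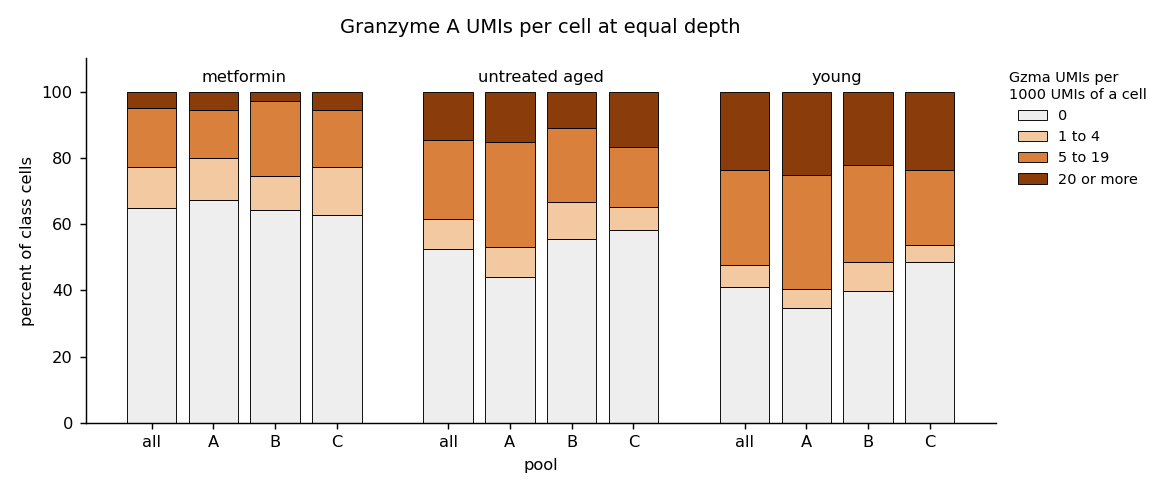
Percent of NK cell/ILC class cells by number of Gzma UMIs after thinning each cell to 1000 UMIs, for all pools and for pools A, B and C, in metformin, untreated aged and young ovaries. Cells with no Gzma UMI make up 64.7%, 52.6% and 41.0% of the summed conditions, and cells with 20 or more make up 4.83%, 14.6% and 23.7%.

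Cells with and without a Gzma UMI were different in other genes, given here over all conditions as a description. The 452 cells with a Gzma UMI carried Itgam (CD11b) at 142 CPM against 16.0 CPM in the 391 cells without, Eomes, the T-box factor of NK cells, at 254 against 65.6 CPM, Irf8 at 970.5 against 202 CPM and Klf2 at 1635 against 249 CPM. The cells without a Gzma UMI carried more of the residency receptors Cxcr6 (384 against 51.7 CPM) and Itga1 (173 against 48.1 CPM), of Il7r (182 against 23.2 CPM), of Xcl1, a chemokine for cross-presenting dendritic cells (3603 against 1013 CPM), and of Tmem176b (331 against 66.8 CPM). Ncr1 was at 719 CPM with and 668 CPM without a Gzma UMI. Median depth with and without a Gzma UMI was 2130.5 and 2363 UMIs in metformin, 2148.5 and 2319 UMIs in untreated aged and 2146.5 and 2761 UMIs in young cells. Among the cells with a Gzma UMI alone, Prf1 was at 714 CPM in metformin, 1186 CPM in untreated aged and 1346 CPM in young cells, and Klf2 at 852.5, 1689 and 1883 CPM.

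Genes of NK cell stages were set side by side. Of the 12 mature-stage genes listed, 9 had at least 50 UMIs over metformin and untreated aged cells, and 1, Cma1, was past 2-fold lower and none higher. The median log2 ratio of the 11 mature-stage members with at least 20 UMIs was -0.49, with 9 below 0, and by pool it was -0.41, -0.36 and -0.46. Cma1, a chymase that mouse NK cells share with mast cells, fell to 47.0 CPM in metformin cells, against 112 CPM in untreated aged and 171 CPM in young cells (log2 ratio of metformin over untreated aged -1.23, -1.97 to -0.57). Cma1 had fewer than 50 UMIs in metformin cells and reached the minimum only with the untreated aged cells, so its call carries no weight.

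Irf8, a transcription factor needed for antiviral NK cell responses (chromosome 8, 120736358 to 120756694, plus strand), was at 332, 306 and 372 CPM in pools A, B and C of metformin cells, against 623.5, 634 and 523.5 CPM in untreated aged cells and 816, 690.4 and 608 CPM in young cells. The metformin pools lay below all others and the log2 ratio of metformin over untreated aged was -0.81 (-1.08 to -0.54). Klf2, a factor that in T cells drives exit into the circulation (chromosome 8, 72319033 to 72321656, plus strand), was at 512 CPM in metformin, 932 CPM in untreated aged and 1153 CPM in young cells, with a log2 ratio of -0.86 (-1.08 to -0.65). In metformin cells 17.01% of its UMIs were in 1 cell. Klf2 in T cell/NKT cells had a log2 ratio of -1.0 (-1.18 to -0.81) for the same comparison, and in T cell/ILC cells of -0.83 (-1.12 to -0.54).

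Rare mature-stage transcripts had too few UMIs for a call between metformin and untreated aged cells. Cx3cr1, the fractalkine receptor of circulating NK cells, had 5 UMIs in metformin cells, 19 in untreated aged cells and 78 in young cells (log2 ratio of metformin over untreated aged -1.94, -3.91 to -0.66). S1pr5, which guides NK cells out of tissue, had 6, 11 and 51 UMIs. Serpinb9b, a protease inhibitor gene that is particular to the class, had 6, 32 and 92 UMIs, with a log2 ratio of -2.44 (-4.17 to -1.34), and 66.7% of its metformin UMIs were in 1 cell. Klrg1, an inhibitory receptor of late NK cells, differed from these, with 71.4 CPM in metformin and 62.15 CPM in untreated aged cells (log2 ratio 0.19, -0.51 to 0.92).

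Immature-stage genes lay on both sides of 0. None of the 10 listed members with at least 50 UMIs was past 2-fold in either direction, and the median log2 ratio of metformin over untreated aged was 0.07. Cd7, an early lymphoid surface protein, was at 984, 860 and 970 CPM in pools A, B and C of metformin cells, against 742, 517 and 783 CPM in untreated aged cells and 597, 606 and 608 CPM in young cells, and the metformin pools lay above all others (log2 ratio 0.43, 0.24 to 0.63). Ltb, which encodes lymphotoxin beta, was at 609.7 CPM in metformin, 453 CPM in untreated aged and 424 CPM in young cells (0.43, 0.18 to 0.68, and -0.04 in pool B). Cd27 was at 136 CPM in metformin, 82.2 CPM in untreated aged and 44.2 CPM in young cells (0.71, 0.16 to 1.31). Tcf7, which encodes the early factor TCF1, went the other way, with 62.7 CPM in metformin and 110.3 CPM in untreated aged cells (-0.80, -1.46 to -0.18).

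**Figure D5:**
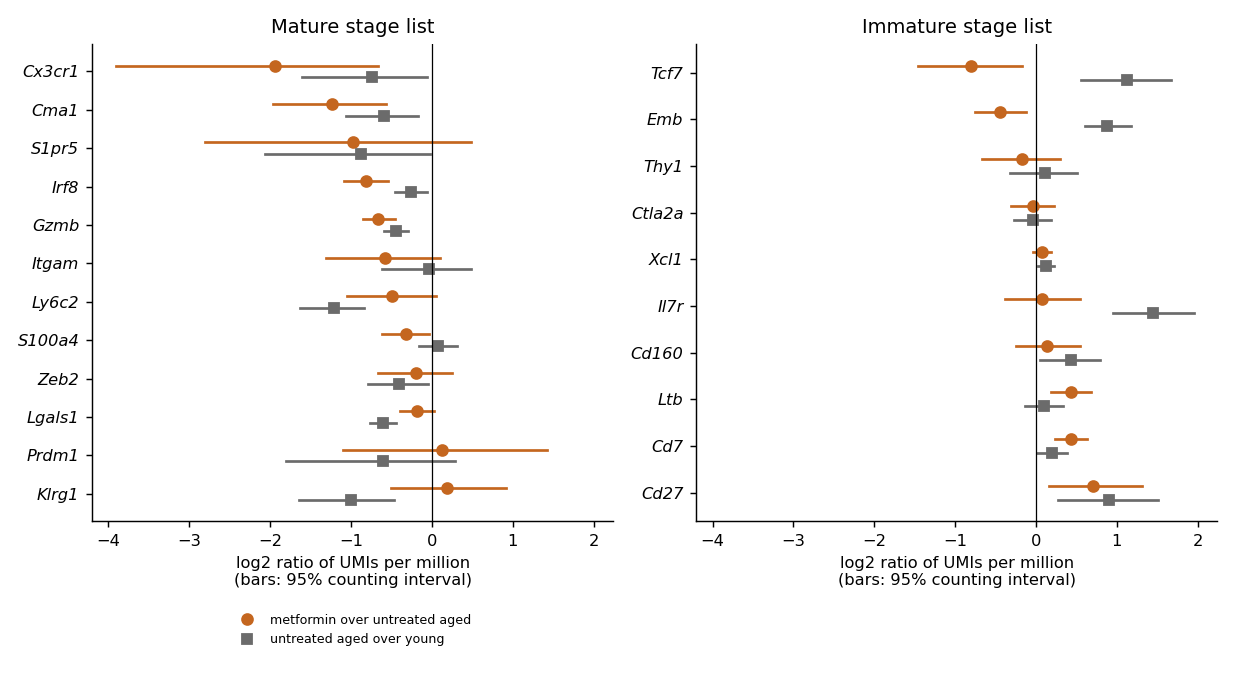
Log2 ratios of CPM in the NK cell/ILC class for listed mature-stage (left) and immature-stage (right) genes, as metformin over untreated aged (circles) and untreated aged over young (squares), with 95% counting intervals as bars. Both comparisons use the untreated aged cells. Irf8 (-0.81 and -0.26) and Gzmb (-0.66 and -0.44) lie below 0 in both, and Cd27 (0.71 and 0.90) above 0 in both.

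Secreted products were next. Ccl5, the most abundant chemokine transcript of the class, was at 11380 CPM in metformin, 14020 CPM in untreated aged and 17260 CPM in young cells (log2 ratio of metformin over untreated aged -0.30, -0.35 to -0.25). The pools differed in this. Ccl5 was at 10510 CPM in metformin and 17340 CPM in untreated aged cells of pool A, at 10790 and 11140 CPM in pool B, and at 12840 and 13250 CPM in pool C. Ccl3 was at 773 CPM in metformin and 1371 CPM in untreated aged cells (-0.83, -1.0 to -0.65), lower in each pool, and Ccl4 at 4545 and 6083 CPM (-0.42, -0.50 to -0.34). Ifng was at 188 CPM in metformin and 297 CPM in untreated aged cells (-0.65, -1.03 to -0.29), but pool C was level at 241 and 232 CPM. Xcl1 was at 2501 and 2376 CPM (0.07, -0.04 to 0.19). Of the 16 listed cytokines and chemokines, 8 had at least 50 UMIs and none was past 2-fold.

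Listed receptor genes were read by their roles. None of the 12 activating, 7 inhibitory and 6 Ly49 receptor genes with at least 50 UMIs was past 2-fold between metformin and untreated aged cells, with median log2 ratios of -0.07, -0.11 and -0.16. Klrk1, which encodes NKG2D, the receptor for stress ligands, was at 575 CPM in metformin and 734 CPM in untreated aged cells (-0.35, -0.57 to -0.13), though in pool C it was at 587 against 496.5 CPM. Klra9 was at 627 CPM in metformin and 455 CPM in untreated aged cells (0.46, 0.22 to 0.71). Cxcr3, the receptor for interferon-induced chemokines, was at 138 CPM in metformin and 76.2 CPM in untreated aged cells (0.83, 0.28 to 1.45) and higher in each pool. Cd226 (DNAM-1) was at 298 and 222.5 CPM (0.42, 0.07 to 0.78).

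MHC class I and antigen processing genes stood slightly higher with metformin. All 12 listed members had log2 ratios above 0, with a median of 0.23 and none past 2-fold, against 3034 of 5839 genes above 0 overall. H2-K1 was at 3361, 3469 and 3391 CPM in pools A, B and C of metformin cells, against 2708, 3253 and 2893 CPM in untreated aged cells, and the pools did not overlap (log2 ratio 0.22, 0.12 to 0.31). H2-Q7 was at 817 and 641.5 CPM (0.35, 0.14 to 0.56), while B2m was at 2261 and 2195 CPM (0.04, -0.07 to 0.16).

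Metformin is known as an inhibitor of respiratory complex I and an activator of AMPK, so metabolic lists were read as well. None of the 35 nuclear complex I genes, 32 other oxidative phosphorylation genes, 11 mitochondrially encoded genes, 11 glycolysis genes or 6 AMPK and mTOR genes with at least 50 UMIs was past 2-fold. Median log2 ratios of metformin over untreated aged were 0.12 for complex I, 0.01 for the other respiratory genes, -0.04 for mitochondrially encoded genes, 0.26 for glycolysis and -0.02 for AMPK and mTOR. In glycolysis, Gapdh was at 141 CPM in metformin and 92.2 CPM in untreated aged cells (0.60, 0.07 to 1.17), and Ldha at 336 and 309 CPM (0.12, -0.19 to 0.44).

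The 11 genes past 2-fold higher with metformin were H2-Aa, Cd74, Mgp, Ifitm3, Morc3, Fosb, Prmt1, Sp1, Mt1, BC004004 and Apoe. H2-Aa, Cd74, Ifitm3, Morc3, BC004004 and Apoe had fewer than 50 UMIs in untreated aged cells. They reached the minimum only through metformin cells, where they are high, so their calls carry no weight. The untreated aged UMIs of Prmt1, Sp1 and Mt1 are not printed here, so no weight is put on their calls either. H2-Aa, a chain of MHC class II, rose to 111.5 CPM in metformin cells, against 22.1 CPM in untreated aged cells and 48.4 CPM in young cells (log2 ratio of metformin over untreated aged 2.23, 1.40 to 3.41). Cd74, the invariant chain of MHC class II, rose to 183 CPM, against 54.1 CPM in untreated aged and 109 CPM in young cells (1.72, 1.14 to 2.42). In metformin cells 28.1% of H2-Aa and 29.5% of Cd74 UMIs were in 1 cell each. Without those cells the log2 ratios were 1.78 and 1.23. Dendritic cell markers, among them Cd74 itself, summed to 331 CPM in metformin, 126 CPM in untreated aged and 183.5 CPM in young cells, with pools of metformin between 166 and 498 CPM. Of the 9 markers, Flt3, Cd209a, Clec9a and Siglech were at 0 in the whole class. The part of dendritic cell RNA in these values was not tested.

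Mgp, a matrix protein of stromal cells, rose to 357 CPM in metformin cells, against 150.4 CPM in untreated aged and 319 CPM in young cells (1.24, 0.86 to 1.65). In metformin cells 36.6% of its UMIs were in 1 cell, and without the cells that had a UMI of another class's genes the log2 ratio was -0.74. Stromal fibroblast markers, among them Mgp itself, summed to 1007 CPM in metformin, 684 CPM in untreated aged and 939.5 CPM in young cells, with every marker of the 10 detected. The part of stromal RNA in Mgp was not tested beyond leaving those cells out. Apoe, an apolipoprotein and macrophage marker, rose to 195 CPM in metformin cells against 92.2 CPM in untreated aged cells (1.06, 0.57 to 1.61), and macrophage markers, among them Apoe itself, summed to 247 and 150.4 CPM. Without Apoe the other macrophage markers summed to 52.3 CPM in metformin and 58.1 CPM in untreated aged cells. Ifitm3, an interferon-induced membrane protein, rose to 185 CPM in metformin cells against 74.2 CPM in untreated aged cells (1.29, 0.76 to 1.90). It was past 2-fold under each alternative processing, but these use the same cells and add no weight to the call. Ifitm3 was the only one of 4 interferon response genes with at least 50 UMIs that was past 2-fold. Fosb, an immediate early gene that dissociation also induces, rose to 228 CPM against 106 CPM (1.09, 0.63 to 1.59), while Jun, Junb and Fos had log2 ratios of -0.06, -0.01 and 0.24. Morc3, a nuclear ATPase, rose to 106 CPM against 40.1 CPM (1.36, 0.66 to 2.21), with the metformin pools at 133, 88.9 and 99.6 CPM above the untreated aged pools at 53.4, 41.4 and 27.0 CPM.

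Besides Gzmc and Cma1, the genes past 2-fold lower were Jchain, Tsc22d1, Cfdp1, Nt5c3, Rin3, Tmem33 and Lilr4b. Tsc22d1, a leucine zipper factor induced by TGF-beta, fell to 67.9 CPM in metformin cells, against 146 CPM in untreated aged cells (-1.09, -1.71 to -0.53). Jchain, the joining chain of secreted antibodies and a plasma cell gene, fell to 33.1 CPM in metformin cells against 106 CPM in untreated aged cells (-1.64, -2.52 to -0.90). By pool Jchain was at 33.2, 14.8 and 52.4 CPM in metformin and 41.6, 220.5 and 75.6 CPM in untreated aged cells, and 45.3% of its untreated aged UMIs were in 1 cell. B and plasma cell markers without Jchain summed to 914.5 CPM in metformin cells (851, 395 and 1525 CPM in pools A, B and C), against 1305 CPM in untreated aged cells (730.3, 2260 and 1079 CPM). All 10 markers of that list were detected, and the part of B and plasma cell RNA in Jchain was not tested. Cfdp1, Nt5c3, Rin3, Tmem33 and Lilr4b fell to between 29.6 and 59.2 CPM in metformin cells, against between 66.2 and 120.3 CPM in untreated aged cells. No gene with 200 UMIs or more was past 2-fold lower, and 1 was past 2-fold higher.

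Untreated aged ovaries were then set against young ovaries, a comparison that shares the untreated aged cells with the one above. A total of 19 of 4348 genes (0.437%) were past 2-fold higher and 44 (1.01%) past 2-fold lower in untreated aged cells. Of 18 cell cycle genes with at least 20 UMIs, 15 were below 0. Their median log2 ratio was -1.20, by pool -1.54, -0.09 and -0.98, and -0.42 after thinning. Of 10 with at least 50 UMIs, Mki67, Top2a, Ube2c and Stmn1 were past 2-fold lower. Whether these 4 genes reached the minimum only through young cells, where they are high, is not shown here. No weight is put on their calls. All 12 interferon response genes with at least 20 UMIs were below 0 (median -0.71), none past 2-fold. Il2 led the lower genes, with 0 UMIs against 291 in young cells, through which alone it passed the minimum. Its log2 ratio was -1.17, -6.56 and -1.03 in pools A, B and C, so most of the young UMIs lay in pool B. Il7r, the interleukin-7 receptor of ILCs and memory lymphocytes, rose to 150.4 CPM in untreated aged cells, against 55.2 CPM in young cells (log2 ratio 1.44, 0.95 to 1.95). By pool it was at 59.4, 221 and 178 CPM in untreated aged cells and at 32.0, 66.1 and 66.0 CPM in young cells, so the untreated aged value of pool A overlaps the young range. T cell/NKT cells had a log2 ratio of 1.18 (0.87 to 1.52) for the same gene. Tcf7 rose to 110.3 CPM in untreated aged cells against 51.0 CPM in young cells (1.12, 0.56 to 1.67), and its 3 untreated aged pools (101, 117 and 113 CPM) lay above the young ones (45.3, 50.1 and 57.8 CPM). Both genes are of the immature-stage list, of which 10 of 11 members were above 0, with a median log2 ratio of 0.20 against 0.04 over all genes.

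In the mature-stage list 11 of 12 members were below 0, against 3163 of all 6968 genes with as many UMIs. The median log2 ratio of the list was -0.59, with 1 gene past 2-fold. That gene, Ly6c2, which marks a mature and resting NK subset, fell to 130.3 CPM in untreated aged cells, against 305 CPM in young cells (-1.21, -1.63 to -0.84). Lgals1, which encodes galectin-1, was at 738 CPM in untreated aged and 1121 CPM in young cells (-0.60, -0.77 to -0.44), lower in each pool. Klrg1 was at 62.15 and 127 CPM (-1.0, -1.64 to -0.47). Gzma had a log2 ratio of -0.37 (-0.43 to -0.31), Gzmb of -0.44 (-0.59 to -0.30) and Prf1 of -0.27 (-0.45 to -0.09) between untreated aged and young cells, none past 2-fold. No gene of the granule protease and perforin list was past 2-fold with age. Of 14 genes of granule traffic and release 1 was, Lyst, a lysosome regulator that rose to 116 CPM in untreated aged cells against 52.7 CPM in young cells (1.14, 0.60 to 1.68).

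Ctse, which encodes the protease cathepsin E, fell to 2 UMIs in untreated aged cells, against 69 in young cells (58.6 CPM, log2 ratio -3.31, -6.94 to -1.96). It had 3 UMIs in metformin cells. It reached the 50 UMI minimum only through young cells, as did Cxcl10, Hspa1a, Hspa1b, Cd3e and Cd3d below, so these calls carry no weight. Cxcl10, a chemokine induced by interferon gamma, fell to 52.1 CPM in untreated aged cells against 190 CPM in young cells (-1.82, -2.51 to -1.28), with 42.3% of the untreated aged UMIs in 1 cell. Ifng fell to 297 CPM against 647 CPM (-1.12, -1.39 to -0.87), but 33.2% of the young UMIs were in 1 cell. Without that cell the log2 ratio was -0.54, and without cells with a CD3 UMI it was -0.65. The heat shock genes Hspa1a and Hspa1b fell to 10.0 and 30.1 CPM in untreated aged cells, against 52.7 and 63.7 CPM in young cells. Cd3e and Cd3d fell to 16.0 and 48.1 CPM against 98.5 and 181 CPM, beside the lower share of cells with a CD3 UMI given above. T cell markers summed to 1301 CPM in untreated aged and 1610 CPM in young cells, with all 13 detected.

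Metformin ovaries set directly against young ovaries gave the widest differences, and this comparison shares cells with both of the others. A total of 26 of 4514 genes (0.576%) were past 2-fold higher and 57 (1.26%) past 2-fold lower in metformin cells. Gzma fell to 3188 CPM in metformin cells, against 8209 CPM in young cells (log2 ratio -1.36, -1.44 to -1.29), Gzmb to 641 CPM against 1374 CPM (-1.10, -1.27 to -0.94) and Prf1 to 336 CPM against 810.4 CPM (-1.26, -1.50 to -1.04). Of the 12 mature-stage genes all 12 were below 0, against 3095 of all 7155 genes with at least 20 UMIs. Their median log2 ratio was -0.94, and Gzmb, Cma1, Ly6c2 and Irf8 were past 2-fold lower. S1pr5 and Cx3cr1 met the call as well, with 6 and 5 UMIs in metformin cells. These genes and Cma1 reached the 50 UMI minimum only through young cells, where they are high, so their calls carry no weight. Klf2 fell to 512 CPM in metformin cells against 1153 CPM in young cells (-1.17, -1.36 to -0.99). Cd27 and Il7r rose to 136 and 158.5 CPM in metformin cells against 44.2 and 55.2 CPM in young cells, with log2 ratios of 1.61 (1.10 to 2.16) and 1.52 (1.05 to 2.0).

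Genes past 2-fold higher in metformin against young cells included some that were also higher in untreated aged cells. Phactr3, a phosphatase and actin regulator that marks the class, was at 113 CPM in metformin, 88.2 CPM in untreated aged and 26.3 CPM in young cells. Lyst, which is mutated in the beige mouse and whose loss impairs NK killing, was at 110 CPM in metformin, 116 CPM in untreated aged and 52.7 CPM in young cells. Hs3st3b1, a heparan sulfate sulfotransferase, was at 55.7 CPM in metformin, 38.1 CPM in untreated aged and 15.3 CPM in young cells. Nr4a3, an orphan nuclear receptor induced by activation, was at 94.1 CPM in metformin, 62.15 CPM in untreated aged and 45.0 CPM in young cells. The interferon-stimulated genes Isg15 and Irf7 fell to 26.1 and 20.9 CPM in metformin cells, against 79.0 and 52.7 CPM in young cells. Phactr3 and Hs3st3b1 had fewer than 50 UMIs in young cells, and Isg15 and Irf7 had fewer than 50 in metformin cells. Phactr3, Hs3st3b1, Isg15 and Irf7 reached the minimum only with the cells where they are high, so their calls carry no weight.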

How the data were processed

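Ovary cells of all 3 conditions were multiplexed with lipid-anchored tags and run as 3 pools on 10x 3' v3. Cell Ranger 3.0.2 and GRCm38 (mm10) are named in the submitters' processing notes. Other upstream steps (doublet removal included) were not given in the sources used here. Raw UMI counts are in the deposited matrix, and the deposited cell table holds UMI counts per cell, the mitochondrial percent and, per the file headers, other columns with the pool, tag, condition and cell type name. No cell was removed: the deposited cells had at least 500 UMIs and at most 19.967% mitochondrial UMIs, and no doublet caller was run.

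UMI counts were summed over class cells per condition and pool (18789 genes) and scaled to CPM. Log2 ratios had 1 UMI added to each count. Exact 95% intervals (Clopper-Pearson for shares, conditional binomial for ratios) cover counting error only. With 1 suspension per condition no test was made. Labels do not say whether pools came from separate animals. Shares of cells with a UMI were taken after thinning to 1000 UMIs per cell. List medians cover members with at least 20 UMIs. Comparisons ran on simulated counts first.

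Named genes were, per comparison, the 10 highest and 10 lowest past 2-fold by the interval bound nearest 0 (without Malat1, Xist, gene models, genes of haemoglobin, ribosomal proteins and mitochondria, and each other class's 20 leading markers), the 4 list members with most UMIs, list members past 2-fold, the 4 markers and the 15 genes most particular to the class. Not all are printed. Any other gene was named after its values were seen. Members and lists were chosen with earlier results of these data known. Promoters are RefSeq on GRCm38.p6 and gene positions are from GENCODE. Python 3.11.15, NumPy 2.4.6, SciPy 1.17.1, pandas 2.3.3 and matplotlib 3.10.9 were used.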

Additional observations from a re-analysis of the deposited data

Results flagged for a closer look

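For 8 named genes every pool of the class moved one way and every pool of a T cell class the opposite way under the same comparison. Only genes past 2-fold in the class were searched, and that call already asks for the same sign in every pool of the class. The share of all genes with such opposite pools was not counted, so the number is description only. The difference between the classes was not tested for any of the 8 genes, and some rest on few UMIs.

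For metformin over untreated aged, Fosb had a log2 ratio of 1.09 in the class and -0.73 in T cell/ILC cells. Ifitm3 stood at 1.29 in the class and -0.95 in T cell/ILC cells under that comparison. Mgp stood at 1.24 and -3.09, and Sp1 at 1.15 and -0.29, in the same classes. For untreated aged over young, Snhg3, a small nucleolar RNA host gene, had a log2 ratio of 1.01 in the class and -0.54 in T cell/NKT cells. For metformin over young, Prf1 stood at -1.26 in the class and 0.48 in T cell/NKT cells, and Tspan32 at 1.13 and -1.17. Cd3d stood at -1.03 in the class and 0.14 in T cell/ILC cells under metformin over young.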

How the results depend on the processing

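The share ratio of metformin over untreated aged was 0.596 among lymphoid and 0.624 among immune classes, and among all cells it ranged from 0.786 to 1.06 without 1 pool. Untreated aged over young was 1.15 among all cells, 0.546 among lymphoid and 1.24 among immune classes, and among all cells it ranged from 0.951 to 1.29 without 1 pool, the lowest being without pool C. Metformin over young was 0.325 among lymphoid and 0.774 among immune classes, and among all cells it ranged from 0.984 to 1.03 without 1 pool.

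Counts of genes past 2-fold depended on the filter. For metformin against untreated aged, higher and lower, they were 11 and 9, with 83 and 58 at 20 UMIs or more, 1 and 0 at 200 or more, 76 and 62 after thinning, 6 and 5 with 5 UMIs added, and 14 to 18 and 10 to 11 without 1 pool. The higher count was 17 without cells with a CD3 UMI and 6 without cells with a UMI of other classes' genes, and the lower count was 18 from mean CPM over cells. For untreated aged against young, 19 and 44 became 122 and 132 at 20 UMIs, 0 and 9 at 200, and 111 and 80 after thinning, with 34 higher from mean CPM, 21 lower with 5 UMIs added, and 17 to 22 and 33 to 44 without 1 pool. For metformin against young, 26 and 57 became 170 and 132 at 20 UMIs, 0 and 16 at 200, and 155 and 121 after thinning, with 50 higher from mean CPM, 32 lower with 5 UMIs added, and 17 to 32 and 43 to 56 without 1 pool. The 20 UMI filter tests more genes and the 200 UMI filter fewer. The cause of the other shifts was not tested.

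With 3 marker genes asked for, in place of 2, lineage shares were 93.2% (NK cell), 9.44% (ILC1), 0.0% (ILC2), 0.0% (ILC3) and 9.56% (T cell). Without thinning they were 99.8%, 42.6%, 4.51%, 11.4% and 45.7%. The Gzma share without 1 pool ranged from 34.3% to 36.5% in metformin, 42.9% to 50.8% in untreated aged and 55.9% to 62.7% in young cells, and these alternatives were chosen after seeing the data. Of 76 named calls past 2-fold, 59 were past it without the cell richest in the gene, and between 61 and 75 under the other alternatives run on all 76. CD3 genes have no value without CD3 cells by construction. The log2 ratio of Mgp for metformin over untreated aged became -0.74 without cells with a UMI of other classes' genes, and that of Il2 for metformin over young became 0.18 without cells with a CD3 UMI. The cause was not tested. No paired analysis was possible because no test was made, each condition being 1 suspension. Values within each pool are given beside the results instead. Depth limits genes under 50 UMIs, such as Cx3cr1 and S1pr5, to wide intervals.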
